A study of Mus musculus with 8 samples.

Results

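The comparison described here is that of LLC1 cells 4 h after a single X-ray dose of 2 Gy with untreated LLC1 cells, read on 3 of the 8 arrays of the study. LLC1 is the Lewis lung carcinoma line of C57BL/6 mice. Each of the 3 arrays was chosen by its label and held 1 biological replicate of the irradiated cells in the Cy5 channel and untreated cells in the Cy3 channel. The other arrays held irradiated cells of a single 10 Gy dose (2 arrays) or of 5 fractions of 2 Gy (3 arrays, written 5x2 Gy), again in Cy5 against untreated cells in Cy3. The third replicate of 10 Gy was not analysed here. No array had the dyes exchanged, so a dye effect of a given gene cannot be told apart from its response to irradiation. The labels do not give the interval between fractions, nor whether the untreated RNA of different arrays came from the same culture.

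Ionizing radiation breaks DNA, and the kinases that sense the breaks stabilize the transcription factor p53. p53 then drives genes that stop the cell cycle, promote cell death, change metabolism and, through Mdm2 and other targets, restrain p53 itself. The inhibitor made by Cdkn1a, p21, keeps RB family proteins active, and these hold down the E2F-driven genes of DNA replication and, within the DREAM complex, the genes of G2 and mitosis. Cell lines derived from Lewis lung carcinoma are used as transplantable tumours in mice of the same strain.

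Of the genes on the array, 12603 had a probe above the negative controls on at least 2 of the 3 arrays and were tested. A gene is called here at an adjusted p under 0.05 in limma, for its mean log2 ratio of 2 Gy over untreated cells against 0, with Benjamini-Hochberg adjustment over all genes tested. That threshold took in 4743 genes, 37.6% of those tested, of which 2391 were higher (19% of those tested) and 2352 lower (18.7%) after 2 Gy. The changes were small: the median size among called genes was 0.39 on the log2 scale, or 1.31-fold, and 57 genes rose and 29 fell by at least 2-fold. For 4724 of the called genes all 3 arrays lay on the same side of 0, which held for 64.8% of all genes tested. Without replicate 3 the number called was 2226, and with the spread estimated from all 8 arrays it was 2263. When the arrays were centred on their median in place of loess, the median of all genes was 0.14 and 78.7% of 5928 calls were higher.

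The cells had signal for mesenchymal markers and for some epithelial ones. All 8 mesenchymal markers, among them Vim, Cdh2 and Zeb1, were above the negative controls on the 3 arrays in both irradiated and untreated cells, and none of them was called. The epithelial markers Epcam, Cdh1 and Esrp1 were above the controls on no array in either group, while the keratins Krt8, Krt18 and Krt19 and the claudin gene Cldn3 were above them on each of the 3 arrays in both. The other epithelial markers varied: Cldn7 was above them on 3 arrays in irradiated and 2 in untreated cells, Cldn4 on 1 and 3, and Krt7 on 2 and 0. Of 8 markers of lung epithelium, 5, including the surfactant gene Sftpc and the lineage factor Nkx2-1, were never above the controls. Ptprc, Adgre1, Csf1r and Itgam, which define leukocytes and macrophages, were never above them either, nor were Pecam1, Tek, Vwf and Emcn of endothelium. Cd68 and Cd3e were above them on all 3 arrays in both groups, and Hba-a1, of red blood cells, on 3 arrays in irradiated and 2 in untreated cells. In RNA of whole cultures, fewer cells of a kind and less RNA per cell cannot be told apart.

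The largest rise was that of Dcxr, dicarbonyl and L-xylulose reductase. Its raw spot signals were 13846, 20867 and 16821 in irradiated cells, against 3034, 2762 and 3648 in untreated cells. The normalized log2 ratios were 1.97, 2.28 and 1.76, a mean of 2.00 ± 0.10 (SE, n = 3 arrays) or 4.01-fold (limma, adjusted p = 7.9e-05). Crip2, which encodes a LIM-domain protein, had log2 ratios of 2.08, 1.40 and 1.78 (3.38-fold higher, adjusted p = 0.00021). Ass1, the argininosuccinate synthase of arginine synthesis, had 1.76, 1.48 and 1.64 (3.09-fold higher, adjusted p = 7.9e-05). For each of these genes the lowest of the 3 ratios was above 1, so the irradiated cells stood clear of the untreated cells on every array. The stress protein gene Trp53inp1, the carnitine palmitoyltransferase gene Cpt1c, the coregulator gene Pnrc1 and the adaptor gene Blnk followed, at 2.87, 2.83, 2.65 and 2.6-fold. Ftl1, the ferritin light chain, and Lgals1, galectin-1, were also among the 15 largest rises, at 2.51 and 2.36-fold, with a saturated spot on 1 and 3 of the 3 arrays. A further probe of Fbxw9 (2.6-fold higher) gave a mean log2 ratio of -0.09.

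Amh, which encodes anti-Müllerian hormone, and Ttbk1, a tau-tubulin kinase gene, fell the furthest. Amh had raw signals of 295, 451 and 457 in irradiated cells, against 1983, 2198 and 2618 in untreated cells. Its log2 ratios of -2.85, -3.01 and -3.01 gave a mean of -2.96 ± 0.08 (SE, n = 3), that is 7.76-fold lower (limma, adjusted p = 1.2e-06). Ttbk1 had log2 ratios of -2.82, -2.94 and -2.88, or 7.36-fold lower (adjusted p = 1.2e-06). Both genes had almost the same ratio on every array, and the ratios of the other regimens were close to them: Amh had -2.68 and -2.63 after 10 Gy and -2.45, -2.25 and -2.50 after 5x2 Gy. Whether the dye had a part in these ratios was not tested. Klf2, a Kruppel-like transcription factor gene, fell 2.76-fold (-1.19, -1.68 and -1.53), although another probe of it averaged -0.07. Tfam, which encodes the mitochondrial transcription factor, was 2.46-fold lower on its brightest probe, with ratios of -1.35, -1.31 and -1.24, while its other probes averaged between -0.15 and 0.02. Hbegf, a ligand of the EGF receptor, was 2.20-fold lower, and Ankrd1, a muscle and stress-responsive ankyrin-repeat gene, 2.16-fold lower. Prl2c3 and Prl2c5, prolactin-family genes whose near-identical copies can share a probe, averaged -1.44 and -1.23 and cannot be assigned to 1 copy. For Vash2 and Syn1 another probe had the opposite sign (0.46 and 0.23).

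**Figure D1:**
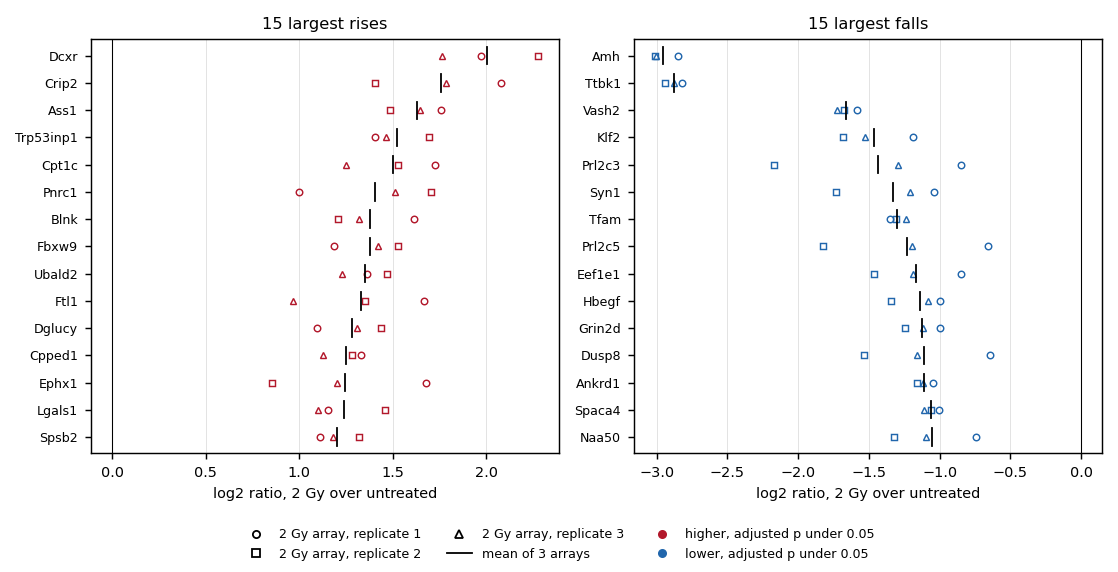
Log2 ratio of 2 Gy over untreated cells for the 15 genes with the largest rise (left) and the 15 with the largest fall (right) among genes called with the same sign on all 3 arrays. Symbols are the 3 arrays and the bar is their mean; Amh and Ttbk1 lie apart from the other falls, at means of -2.96 and -2.88.

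Some genes were above the negative controls on 1 side only, and for these the fold is a bound set by the dimmest signal that counted as above background. Celf5, an RNA-binding protein gene, was at least 2.94-fold higher in irradiated cells, with ratios of 1.45, 1.87 and 1.74. Serpine2, a protease inhibitor gene, and Cyp1b1, a cytochrome P450 gene, were at least 1.86 and 1.74-fold higher. In the other direction Pinlyp was not above background in irradiated cells and was at least 2.76-fold lower, and the water channel gene Aqp3 at least 1.38-fold lower.

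The p53 lists held 74 genes by role, all on the array. Perp, Rrm2b and Cd80 had no probe that passed the filter on low signal, which left 71 genes. Of these, 42 were called higher, 59.2%, and 3 lower, 4.23%, against 19% and 18.7% of all genes tested. The list median was 0.45 on the log2 scale, against -0.0020 for all genes tested. With the spread of all 8 arrays 27 were higher and 3 lower, and without replicate 3 the numbers were 36 and 3. When spots flagged in the scanner files were left out, 62 genes remained, 36 higher and none lower. The list medians were 0.40, 0.51 and 0.44 on the 3 arrays, so no single array carried the rise. Trp53 itself, the gene of p53, did not pass the test, with log2 ratios of 0.23, -0.01 and 0.09 (mean 0.11 ± 0.08 SE, limma adjusted p = 0.33).

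**Figure D2:**
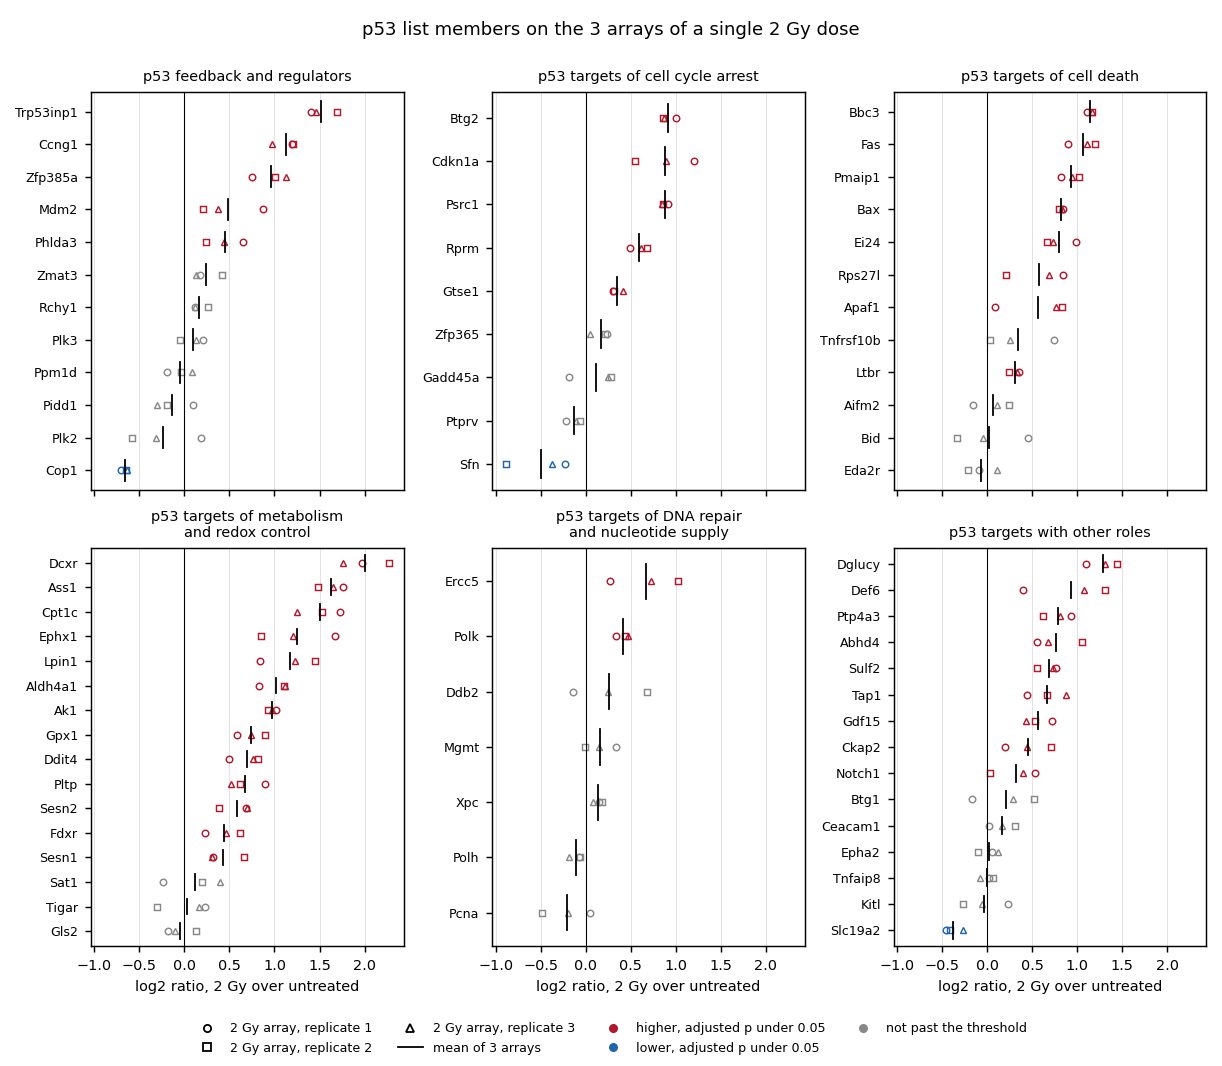
Log2 ratio of 2 Gy over untreated cells for the 71 measured genes of the p53 lists, by role. Symbols are the 3 arrays, bars their means, and colours the calls; the metabolic genes reach the highest means, up to 2.00 for Dcxr, and the 3 genes in blue are Cop1, Sfn and Slc19a2.

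Promoter windows of 3 of the genes that rose are shown because each holds a p53 half-site, the decamer that p53 binds in pairs, on either strand and without mismatch. Windows run from 250 bases before to 50 after the start of the gene in RefSeq on GRCm38.p6, and the decamer is in capitals.
Ccng1 (chr11:40755237-40755536, minus strand): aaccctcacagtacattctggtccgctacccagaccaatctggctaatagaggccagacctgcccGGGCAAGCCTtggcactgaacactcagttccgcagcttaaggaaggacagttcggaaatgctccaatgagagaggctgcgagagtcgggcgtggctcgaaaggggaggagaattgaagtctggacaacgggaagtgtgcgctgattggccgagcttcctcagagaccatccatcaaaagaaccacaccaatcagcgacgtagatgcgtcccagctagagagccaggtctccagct
Cdkn1a (chr17:29090729-29091028, plus strand): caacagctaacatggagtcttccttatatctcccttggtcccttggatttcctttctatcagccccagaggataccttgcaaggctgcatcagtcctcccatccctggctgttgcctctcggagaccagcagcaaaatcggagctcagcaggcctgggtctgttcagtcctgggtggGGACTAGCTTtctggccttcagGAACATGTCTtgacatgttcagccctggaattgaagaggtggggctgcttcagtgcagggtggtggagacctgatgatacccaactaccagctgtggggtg
Bax (chr7:45466849-45467148, minus strand): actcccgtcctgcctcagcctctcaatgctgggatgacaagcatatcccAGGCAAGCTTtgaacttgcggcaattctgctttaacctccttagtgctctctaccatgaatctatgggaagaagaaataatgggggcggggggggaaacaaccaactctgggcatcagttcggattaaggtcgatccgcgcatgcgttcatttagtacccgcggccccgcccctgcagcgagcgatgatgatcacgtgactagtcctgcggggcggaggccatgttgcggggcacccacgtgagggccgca
Of the 61 list genes with a window, 14 held the decamer, 23%, against 9.55% of all 27025 genes with a window and 8.3% of the 9930 tested genes with one. Among the 39 called higher it was in 11, namely Abhd4, Bax, Ccng1, Cdkn1a, Ckap2, Ei24, Gtse1, Mdm2, Polk, Rps27l and Sesn1. Gadd45a, Ppm1d and Rchy1 held it and were not called. A match of letters describes the window and is not a measured binding site, and the lists were made of known p53 targets.

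Among feedback genes and regulators of p53, 5 of 12 were higher (41.7%) and 1 lower (8.33%), against 19% and 18.7% of all genes tested. With the spread of all 8 arrays these were 2 and 1. Ccng1, whose product cyclin G1 acts on Mdm2, had log2 ratios of 1.19, 1.20 and 0.97, a mean of 1.12 ± 0.08 (SE, n = 3) or 2.18-fold (limma, adjusted p = 0.00025), and its other probe averaged 1.13. The decamer in its window above begins 185 bases before the start. Mdm2, the ubiquitin ligase that degrades p53, had 0.88, 0.20 and 0.37 (1.40-fold higher, adjusted p = 0.018). Replicate 1 gave the highest of the 3 ratios of Mdm2, and with the spread of all 8 arrays the adjusted p was 0.18. Zfp385a, which encodes a zinc-finger partner of p53, rose 1.95-fold, while its other probes averaged -0.19 and 0.22, and Phlda3, an inhibitor of Akt, rose 1.36-fold. The phosphatase gene Ppm1d, another inhibitor in the loop, had -0.19, -0.04 and 0.09, and the kinase gene Plk2 had 0.18, -0.59 and -0.31. Neither was called. Cop1, a ubiquitin ligase gene that also targets p53, fell on all 3 arrays (-0.71, -0.64 and -0.64, 1.58-fold lower, adjusted p = 0.0008). With spots flagged in the scanner files left out, 10 genes of this list remained, 4 higher and none lower.

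Of 9 genes of cell cycle arrest, 5 were higher (55.6%) and 1 lower (11.1%), against 19% and 18.7% of all genes tested. With the spread of all 8 arrays Psrc1 was the 1 gene called higher and Sfn the 1 called lower. Cdkn1a had raw signals of 23325, 18924 and 24663 in irradiated cells, against 7609, 7713 and 8736 in untreated cells. After normalization its log2 ratios were 1.21, 0.55 and 0.89, with a mean of 0.88 ± 0.12 (SE, n = 3) or 1.84-fold (limma, adjusted p = 0.0014). The ratio was above 0 on every array and highest on array 1 and lowest on array 2. With the spread of all 8 arrays the adjusted p of Cdkn1a was 0.086, and those of Btg2, Rprm and Gtse1 were 0.068, 0.089 and 0.26. The ratios of Btg2, an antiproliferative cofactor gene, differed less between these 3 arrays, at 1.00, 0.86 and 0.86 (1.88-fold), as did those of Psrc1, a spindle protein gene, at 0.91, 0.86 and 0.85 (1.83-fold). Rprm, which encodes the G2 arrest protein reprimo, rose 1.51-fold. Gtse1, a G2 and S phase protein gene, rose 1.27-fold (adjusted p = 0.0099, and 0.11 without replicate 3). Gadd45a, a stress sensor gene often followed after irradiation, had -0.19, 0.28 and 0.25 and was not called. Sfn, the 14-3-3 sigma gene, fell 1.41-fold (-0.23, -0.88 and -0.37); it was no longer called with median centring.

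The death genes held 8 of 12 called higher (66.7%) and none lower, against 19% and 18.7% of all genes tested. With the spread of all 8 arrays these were 4 and none. Bbc3 and Pmaip1, which encode the BH3-only proteins Puma and Noxa, had ratios of 1.11, 1.16 and 1.16 (2.21-fold) and of 0.82, 1.02 and 0.94 (1.90-fold). Fas, the death receptor, had 0.90, 1.20 and 1.11 (2.09-fold, adjusted p = 0.00033), and Bax, the pore-forming effector of mitochondrial death, 0.84, 0.80 and 0.83 (1.77-fold, adjusted p = 0.00044). All arrays lay well above 0 for these 4 genes. Ei24, an endoplasmic reticulum protein gene of the autophagy pathway, rose 1.74-fold. Apaf1, the apoptosome scaffold, had 0.09, 0.83 and 0.77 and its call rested on replicate 3, without which the adjusted p was 0.07. The gene of the TRAIL receptor, Tnfrsf10b, had 0.74, 0.03 and 0.25 (adjusted p = 0.066). The Bcl-2 family gene Bid had 0.45, -0.33 and -0.05, and the ectodysplasin receptor gene Eda2r -0.09, -0.21 and 0.11. None of these 3 was called.

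Metabolic and redox targets moved the furthest, with 13 of 16 higher (81.25%), none lower and a median of 0.71. Of all genes tested, 19% were higher and 18.7% lower. Besides Dcxr, Ass1 and Cpt1c, Ephx1, the microsomal epoxide hydrolase gene, had 1.68, 0.86 and 1.20 (2.37-fold). Lpin1, which encodes a phosphatidate phosphatase of lipid synthesis, had 0.84, 1.45 and 1.23 (2.25-fold), and Aldh4a1, of proline breakdown, 0.83, 1.11 and 1.11 (2.03-fold). Ak1, the adenylate kinase gene, had 1.02, 0.93 and 0.97 (1.96-fold). Sesn1 and Sesn2, sestrins that restrain mTORC1, rose 1.34 and 1.50-fold, and Gpx1, glutathione peroxidase, 1.67-fold. The 3 genes not called were Tigar, a brake on glycolysis (0.23, -0.30 and 0.16), the glutaminase gene Gls2 (-0.18, 0.13 and -0.11) and Sat1, of polyamine breakdown (-0.24, 0.20 and 0.39).

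DNA repair targets had the lowest median of the p53 lists, 0.16. Of 7 genes 2 were called higher, 28.6%, and none lower, against 19% and 18.7% of all genes tested. The polymerase gene Polk rose 1.33-fold (0.33, 0.44 and 0.47; adjusted p = 0.005, and 0.052 without replicate 3), and the nucleotide excision endonuclease gene Ercc5 1.59-fold (0.27, 1.02 and 0.73). Ddb2 and Xpc, which recognize damage in the same pathway, had -0.14, 0.68 and 0.24, and 0.14, 0.18 and 0.08, and were not called. Without replicate 1 the adjusted p of Ddb2 was 0.01. Among targets with other roles, 9 of 15 were higher, led by Dglucy (2.43-fold), the signalling gene Def6 (1.90-fold), the phosphatase gene Ptp4a3 (1.72-fold) and the sulfatase gene Sulf2 (1.60-fold). Gdf15, a secreted stress cytokine, had 0.72, 0.53 and 0.44 (1.48-fold). Slc19a2, a thiamine transporter gene, fell by 0.38 on the log2 scale and averaged 0.028 (adjusted p = 0.80) with median centring.

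Genes of G1/S and DNA replication were lower after 2 Gy with loess, and with median centring their median lay 0.16 below that of all genes. All 58 genes of that list were measured, and 33 were called lower, 56.9%, and none higher, with a median of -0.28. Their median was below 0 on each array (-0.20, -0.29 and -0.33). Without replicate 3, as with the spread of all 8 arrays, 17 were lower and none higher. The genes are bright, in the median 8 of 10 classes of brightness, and in that class 24.8% of all genes were lower and 16.6% higher. Median centring left 12 of them lower and 8 higher, with a median of -0.01. Ung, uracil-DNA glycosylase, had -0.69, -1.33 and -1.01 (2.01-fold lower, adjusted p = 0.0009), and Ccne2, cyclin E2, -1.02, -0.71 and -0.79 (1.79-fold lower, adjusted p = 0.00068). Ctps, the enzyme of CTP synthesis, was 1.61-fold lower, and Pole2, of the leading-strand polymerase, 1.51-fold lower (-0.73, -0.52 and -0.53). Rfc4, of the clamp loader, and Chaf1b, of the histone chaperone of replication, were both 1.48-fold lower. Each of these 6 genes was below 0 on all 3 arrays. Of the 15 measured replication-dependent histone genes, only H4c1 was called, 1.27-fold lower, and it was not called without replicate 2 (adjusted p = 0.22).

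The windows of Pole2 and Uhrf1, a reader of hemimethylated DNA whose gene was also called lower, are the ones with the largest falls among those that hold TTTCGCGC, TTTGGCGC or TTTCCCGC, letters of the E2F site, on either strand.
Pole2 (chr12:69228141-69228440, minus strand): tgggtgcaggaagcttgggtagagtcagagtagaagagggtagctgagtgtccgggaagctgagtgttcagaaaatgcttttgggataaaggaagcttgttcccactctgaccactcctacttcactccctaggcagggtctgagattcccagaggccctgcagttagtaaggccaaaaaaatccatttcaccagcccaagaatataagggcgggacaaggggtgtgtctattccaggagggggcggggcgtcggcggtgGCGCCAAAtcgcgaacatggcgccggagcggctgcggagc
Uhrf1 (chr17:56304063-56304362, plus strand): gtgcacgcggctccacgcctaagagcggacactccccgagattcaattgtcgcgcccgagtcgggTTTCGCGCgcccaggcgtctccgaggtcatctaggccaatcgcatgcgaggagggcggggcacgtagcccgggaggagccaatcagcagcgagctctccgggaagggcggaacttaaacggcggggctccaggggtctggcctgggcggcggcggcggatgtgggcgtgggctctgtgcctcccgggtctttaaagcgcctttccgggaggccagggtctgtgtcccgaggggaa
These letters were in 16 of the 48 replication genes with a window, 33.3%. The share was 2.12% of all genes with a window and 4.08% of tested genes with one. They were in 7 of the 29 called lower (24.1%) and in 9 of the 19 not called (47.4%), among them Mcm5, Mcm6 and Cdc6, so holding them did not go with a larger share of falls.

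The G2 and mitosis list went another way: 21 of 60 genes were higher, 35%, and 6 lower, 10%. Of all genes tested, 19% were higher and 18.7% lower. The list median was 0.14. With the spread of all 8 arrays 5 were higher and none lower. Without replicate 3 the numbers were 12 and 2, and median centring gave 37 higher and none lower. Aurkb, the kinase of the chromosomal passenger complex, had 0.63, 0.49 and 0.59 (1.49-fold higher, limma adjusted p = 0.0014). Nusap1, a spindle protein gene, had 0.46, 0.98 and 0.71 (1.65-fold higher), and Ccnf, cyclin F, 0.49, 0.47 and 0.57 (1.42-fold higher). Ube2c, the conjugating enzyme of the anaphase-promoting complex, Ndc80, of the kinetochore, and Cdc25b, a phosphatase that activates Cdk1, rose 1.42, 1.44 and 1.43-fold, and with the spread of all 8 arrays their adjusted p-values were 0.10, 0.095 and 0.17. Ccna2, cyclin A2, which acts in S phase as well, fell (-0.14, -0.56 and -0.89, 1.45-fold lower, adjusted p = 0.015, and 0.097 without replicate 3). All 3 of its ratios were below 0, and they differed from each other more than those of Aurkb.

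The windows of Ndc80 and Ccnf, the largest rises among the called genes that hold it, show TTTGAA, the letters of the cell cycle homology region bound by the DREAM complex, on either strand.
Ndc80 (chr17:71526808-71527107, minus strand): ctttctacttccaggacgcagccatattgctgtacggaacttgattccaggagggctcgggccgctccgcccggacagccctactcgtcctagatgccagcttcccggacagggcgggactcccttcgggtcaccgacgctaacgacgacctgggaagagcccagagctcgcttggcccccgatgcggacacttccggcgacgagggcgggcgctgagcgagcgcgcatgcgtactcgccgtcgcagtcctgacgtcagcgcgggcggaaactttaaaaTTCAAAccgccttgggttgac
Ccnf (chr17:24251360-24251659, minus strand): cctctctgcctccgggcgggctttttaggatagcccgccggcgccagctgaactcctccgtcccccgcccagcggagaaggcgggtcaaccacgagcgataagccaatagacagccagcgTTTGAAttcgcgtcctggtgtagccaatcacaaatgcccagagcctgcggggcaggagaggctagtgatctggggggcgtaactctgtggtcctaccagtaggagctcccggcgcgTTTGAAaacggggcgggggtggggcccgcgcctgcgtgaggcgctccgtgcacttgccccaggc
TTTGAA was in 34 of the 49 G2 and mitosis genes with a window, 69.4%, against 20.2% of all genes and 14.2% of tested genes with one. It was in 13 of the 18 called higher, 4 of the 5 called lower and 17 of the 26 not called. CCAAT, the site of NF-Y, was in 38 of the 49, 77.6%, against 41.1% of all genes and 42.8% of tested genes with a window.

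**Figure D3:**
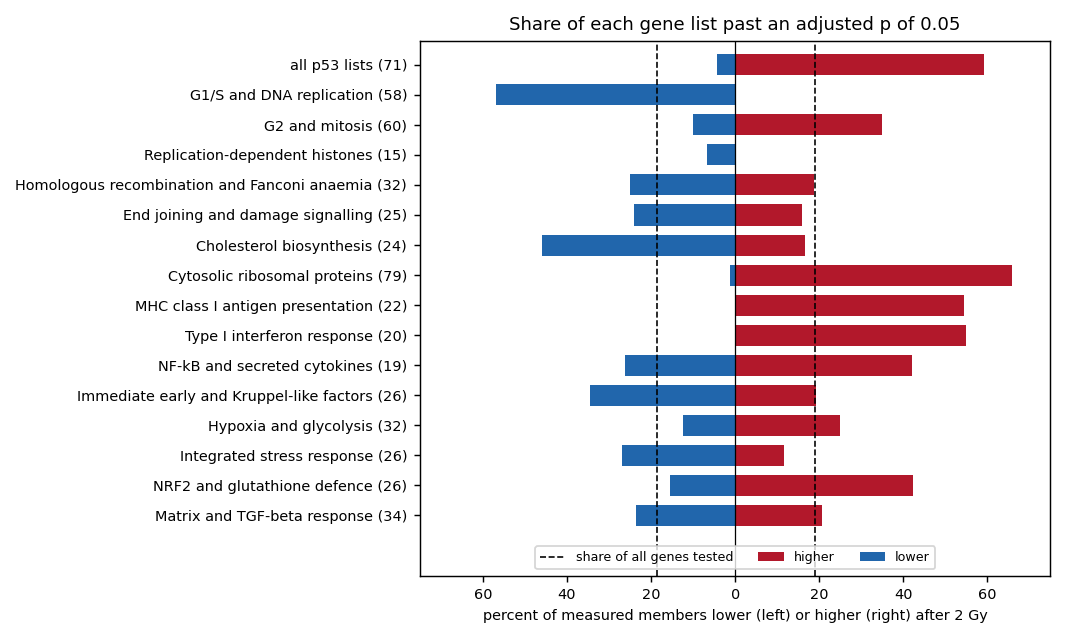
Percent of the measured members of each gene list called lower (blue, to the left) or higher (red, to the right) after 2 Gy, with the number measured in brackets. Dashed lines mark the shares among all 12603 genes tested, 18.7% lower and 19% higher; replication (56.9%) and cholesterol genes (45.8%) reach furthest to the left, and the p53, ribosomal protein, MHC class I and interferon lists furthest to the right.

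DNA repair genes outside the p53 lists were called about as often as all genes tested. Of 32 genes of homologous recombination and the Fanconi anaemia pathway, 6 were higher and 8 lower, near the background shares of 19% and 18.7%. Without replicate 3 the numbers were 3 and 2. Exo1, the nuclease that resects breaks, was 1.95-fold lower (-0.77, -1.04 and -1.08, adjusted p = 0.00049), and Fancb 1.40-fold lower, while Rad51d and Mus81 were 1.41 and 1.36-fold higher. Of 25 genes of end joining and damage signalling, 4 were higher (16%) and 6 lower (24%), again near the background, and 2 each way without replicate 3. Nhej1, the XLF subunit of end joining, was 1.58-fold higher (0.98, 0.31 and 0.69), and the damage histone gene H2ax 1.49-fold higher, while Topbp1 and Rif1, which act at replication forks and breaks, were 1.40 and 1.42-fold lower.

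In cholesterol biosynthesis 11 of 24 measured genes were lower, 45.8% against 18.7% of all genes tested, and 4 were higher, 16.7% against 19%. The list median was -0.21. Cyp51, Msmo1 and Sc5d, enzymes of the late sterol steps, were 1.35, 1.40 and 1.36-fold lower. The early enzymes Mvk (0.78, 0.56 and 0.64, 1.58-fold) and Mvd (0.42, 0.57 and 0.49, 1.41-fold) were higher on every array. Without replicate 3 the list had 3 genes each way. Under median centring the split turned to 7 higher and 1 lower, with a list median 0.08 below that of all genes.

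Cytosolic ribosomal protein genes gave 52 of 79 higher, 65.8%, and 1 lower, with a median of 0.46. Of the 79, 76 were among the brightest 10% of genes and 55 had a saturated spot on at least 1 array. In the brightest class as a whole 25.5% of genes were higher and 19.1% lower. Among the 24 genes with no saturated spot 12 were higher and 1 lower, with a median of 0.28. When spots flagged in the scanner files were left out, 9 of the 79 genes remained, 3 higher and 1 lower, with a median of 0.26. With median centring the list median was 1.06 and that of the brightest class 0.56. Rpl28, of the large subunit, had raw signals of 45611, 45566 and 40079 in irradiated cells, against 14331, 12028 and 12417 in untreated cells, and normalized log2 ratios of 1.11, 1.07 and 1.00, with a saturated spot on 1 array. The part of brightness and saturation in this shift was not tested.

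In the lists of antigen presentation and of the interferon response, all genes called were higher. Of all genes tested, 19% were higher and 18.7% lower. MHC class I presentation, the route by which peptides are shown to T cells, had 12 of 22 genes higher, 54.5%, with a median of 0.27. H2-L and H2-D1, class I heavy chain genes of near-identical sequence that can share probes, were 1.69 and 1.44-fold higher. Tap1, the peptide transporter gene that is also a p53 target, had 0.44, 0.67 and 0.87 (1.58-fold), and Psme1, of the proteasome activator, 0.53, 0.41 and 0.74 (1.47-fold). Without replicate 3 the number higher was 7. Of 32 type I interferon response genes 20 were measured, and 11 of those were higher, 55%, with a median of 0.40. Ifitm1, Ifitm2 and Ifitm3, membrane proteins that block viral entry, were 1.89, 1.65 and 1.69-fold higher. Irgm1, a GTPase gene, had 0.77, 0.97 and 0.80 (1.80-fold), and Ifi35 0.82, 0.65 and 0.81 (1.69-fold). Ddx58, which encodes the RNA sensor RIG-I, was not above background in untreated cells on any array and was at least 1.41-fold higher. With the spread of all 8 arrays 6 class I genes and 7 interferon genes were higher and none lower.

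NF-kB targets and secreted cytokines divided, with 8 of 19 measured genes higher (42.1% against 19% of all genes tested) and 5 lower (26.3% against 18.7%). Without replicate 3 these were 5 and 2, and without replicate 2 the list median was -0.02 in place of 0.05. The neutrophil chemokine genes Cxcl5 (1.31, 0.86 and 0.87) and Cxcl1 (0.86, 0.93 and 0.52) were 2.02 and 1.71-fold higher, as was the NF-kB subunit gene Nfkb2, 1.67-fold. Cxcl2, a chemokine of the same kind, was lower (-0.25, -0.32 and -0.31, 1.23-fold, adjusted p = 0.017), and so was the chemokine gene Ccl20 (-0.27, -0.24 and -0.28, 1.20-fold). Both are added to the named genes after their values were seen. Ccl2, the monocyte chemokine, was 1.61-fold higher, with a saturated spot on 1 array. The cytokine gene Il11 was 1.81-fold lower (-1.19, -0.47 and -0.90), and Tnfaip3, the feedback inhibitor A20, 1.38-fold lower (-0.50, -0.49 and -0.39).

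Immediate early and Kruppel-like factor genes had 9 of 26 lower, 34.6%, and 5 higher, 19.2%, against 18.7% and 19% of all genes tested. Without replicate 3 these were 7 and 2. With median centring 6 were lower and 11 higher. Srf, the serum response factor, had -0.92, -0.67 and -0.80 (1.73-fold lower), and Egr2 and Egr1, zinc-finger factors induced by growth signals, were 1.59 and 1.43-fold lower. The 5 higher were all Kruppel-like factor genes, Klf3, Klf9, Klf10, Klf11 and Klf13, with mean log2 ratios from 0.27 to 0.53, while Klf2 and Klf6 were lower. Of these, Klf3, Klf9, Klf10 and Klf13 are added to the named genes after their values were seen. In the matrix and TGF-beta list 7 of 34 genes were higher and 8 lower, near the background shares, against 19 and 5 with median centring. Among the lower ones were Ccn1 and Ccn2, secreted proteins induced by serum and TGF-beta, with mean log2 ratios of -0.93 ± 0.09 and -0.76 ± 0.07 (SE, n = 3; limma, adjusted p = 0.00053 and 0.00054). The TGF-beta target Id3 was 1.56-fold higher.

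Of the NRF2 and glutathione genes 11 of 26 were higher, 42.3%, and 4 lower, or 7 and 1 without replicate 3. Nqo1, the quinone reductase gene, had 0.50, 0.73 and 0.59 (1.52-fold higher), and Gstp1, a glutathione transferase gene, was 1.74-fold higher with a saturated spot on 1 array. Srxn1, sulfiredoxin, was 1.60-fold lower (-0.90, -0.54 and -0.59). Among the 22 genes with no saturated spot 7 were higher and 4 lower, and the median was 0.06 in place of 0.20. Hypoxia and glycolysis genes had 8 of 32 higher (25% against 19% of all genes) and 4 lower (12.5% against 18.7%), and 4 each way among the 24 with no saturated spot. Leaving out replicate 1, 2 or 3 gave 14 and 4, 4 and 6, and 2 and 2. Aldoa, the aldolase gene, was 2.16-fold higher with saturated spots on all 3 arrays. Pfkfb3, a regulator of glycolysis, was 1.38-fold lower (-0.44, -0.45 and -0.51). In the integrated stress response 3 of 26 genes were higher (11.5%) and 7 lower (26.9%), not far from the same background shares, 2 and 3 without replicate 3, and 9 and 1 with median centring. Atf4, its central factor, had -0.43, -0.43 and -0.44 (1.35-fold lower), a fall that was not called with median centring.

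**Figure D4:**
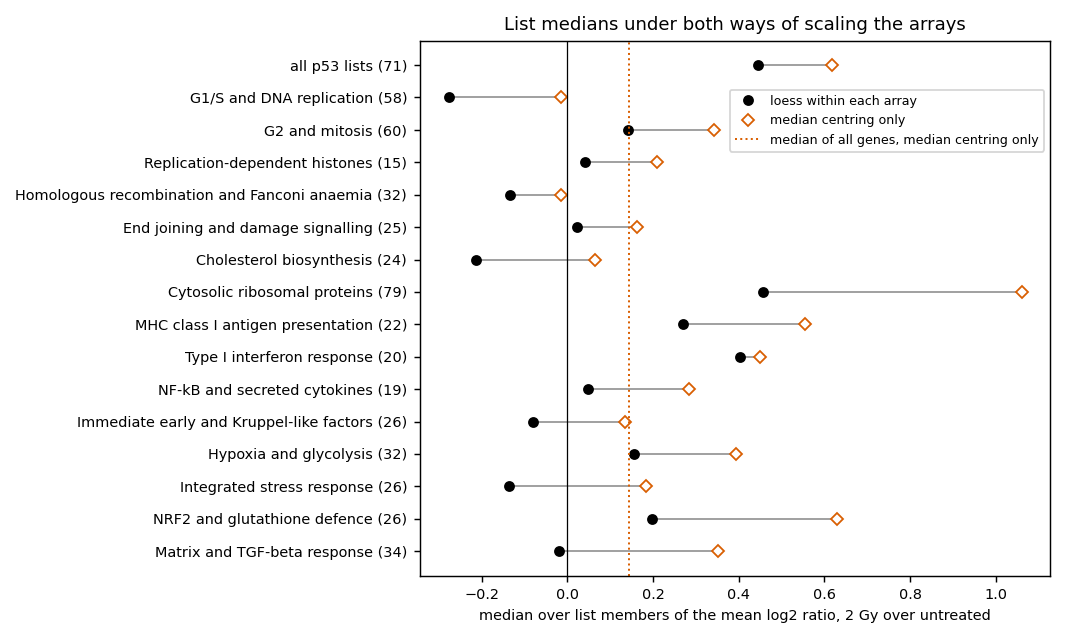
Median over the members of each list of the mean log2 ratio of 2 Gy over untreated cells, after loess within each array (filled circles) and after median centring only (open diamonds). The dotted line is the median of all genes under median centring, 0.14; replication, recombination, cholesterol and, by a small margin, immediate early genes lie below it, and ribosomal protein genes are moved the furthest, to 1.06.

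The response to 2 Gy was then set against those to the larger doses, with 1 mean per regimen fitted to all 8 arrays over the same genes. Between 2 Gy and 10 Gy, 339 genes differed (2.69% of those tested), 207 with the higher log2 ratio after 2 Gy (1.64%) and 132 with the lower (1.05%). Between 2 Gy and 5x2 Gy, 189 genes differed (1.5%), 137 higher after 2 Gy (1.09%) and 52 lower (0.413%). These counts rested on every array of 2 Gy: leaving out any of them left 0 calls in limma for either difference, with 1787 to 2641 genes at an unadjusted p under 0.05. All 2 Gy arrays and 10 Gy replicate 1 were on slide 1, and 10 Gy replicate 2 and all 5x2 Gy arrays on slide 2, so only the arrays of 10 Gy link the slides. With slide as a block in the fit, the difference between 2 Gy and 5x2 Gy was called for 2335 genes. That fit takes the slide effect from the gap between the 2 arrays of 10 Gy, 1 on each slide. These 2 arrays then add nothing to its estimate of the spread, so their disagreement is left out of it. The slides are those named by the image names in the file headers. Without 10 Gy replicate 2, the difference between 2 Gy and 10 Gy lay within slide 1 and rested on 1 array of 10 Gy. The median difference of the p53 lists was then -0.94, and it was -0.39 without 10 Gy replicate 1.

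G2 and mitosis genes stood out in that comparison. After 2 Gy the list median was 0.08, 0.12 and 0.12 on the 3 arrays, against -1.76 and -0.52 after 10 Gy and -0.11, -0.31 and -0.16 after 5x2 Gy. The 2 Gy arrays were all above both 10 Gy arrays for 48 of the 60 genes, against 18.7% of all genes tested. For 22 of the 60 the difference was called, all with 2 Gy higher, against 1.64% of all genes tested. The median difference of the list was 1.27, against 0.05 for all genes. It was 1.88 within slide 1 and 0.62 when replicate 2 alone stood for 10 Gy. Against 5x2 Gy it was 0.34, with 2 differences called, and with slide as a block 1.70, with 51 genes called higher after 2 Gy. The value of 1.70 includes the gap between the 2 arrays of 10 Gy, which alone link the slides. Cenpf, a kinetochore protein gene, had 0.25, 0.52 and 0.47 after 2 Gy, -2.12 and -1.20 after 10 Gy, and -0.59, -1.21 and -0.89 after 5x2 Gy. Its difference from 10 Gy was 2.07 (limma, adjusted p = 0.023) and from 5x2 Gy 1.31 (adjusted p = 0.042). Cenpe, the kinetochore motor, had 0.30, 0.37 and 0.34 after 2 Gy, against -2.69 and -0.83 after 10 Gy. Nusap1 had 0.46, 0.98 and 0.71 after 2 Gy, against -1.72 and -0.94 after 10 Gy. In each case the lowest 2 Gy array was above the highest array of 10 Gy. The rule that named these differences took only genes whose arrays did not overlap, so this separation was fixed by the choice.

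**Figure D5:**
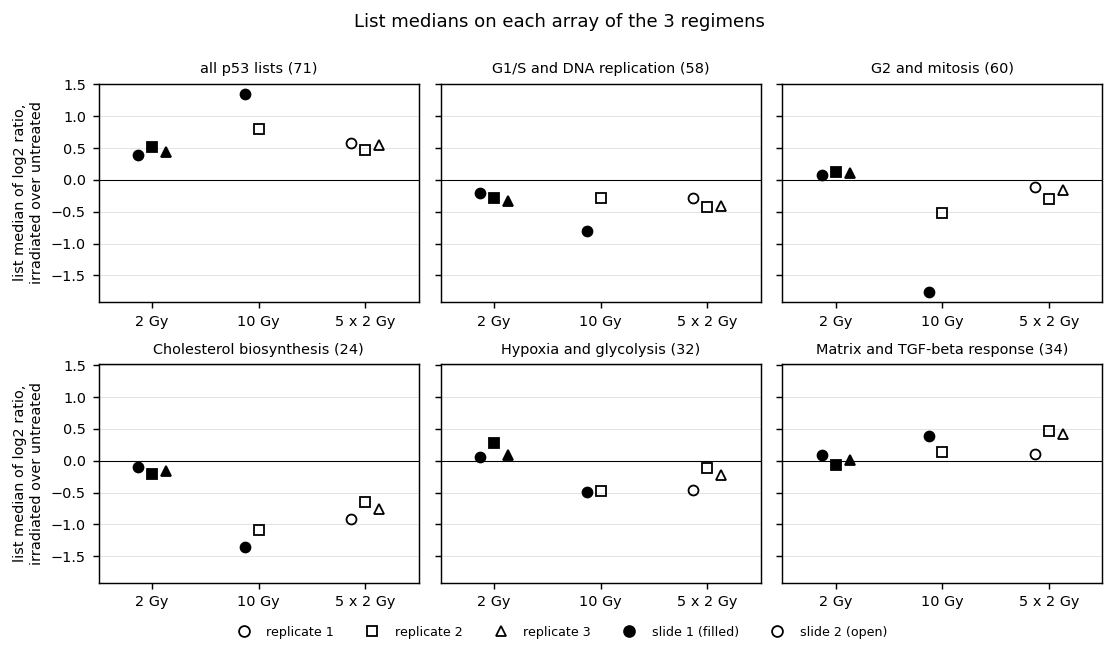
Median log2 ratio, irradiated over untreated cells, of 6 gene lists on each of the 8 arrays, by regimen from 2 Gy to 5x2 Gy. Filled symbols are arrays on slide 1 and open ones on slide 2; the G2 and mitosis median lies between 0.08 and 0.12 after 2 Gy and below 0 on the other 5 arrays, and the 10 Gy arrays lie apart from each other.

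The p53 genes showed the opposite order against 10 Gy. Their list medians of 0.40, 0.51 and 0.44 after 2 Gy compared with 1.36 and 0.81 after 10 Gy and with 0.57, 0.47 and 0.55 after 5x2 Gy. For 38 of the 71 genes all 2 Gy arrays were below both 10 Gy arrays, against 13.8% of all genes tested. The difference was called for 9 of the 71, all with 2 Gy lower, against 1.05% of all genes tested. Against 5x2 Gy, 19 of the 71 were below all 3 arrays, against 21.3% of all genes, and 9 above them, against 25.9%. There, 2 differences were called, both with 2 Gy lower, against 0.413% of all genes tested. The median p53 difference from 5x2 Gy was -0.09, and -0.66 in the fit with slide as a block. Cdkn1a had 1.21, 0.55 and 0.89 after 2 Gy, against 3.73 and 1.47 after 10 Gy and 1.35, 1.15 and 1.30 after 5x2 Gy. Ak1 had 1.02, 0.93 and 0.97 after 2 Gy, 3.11 and 2.28 after 10 Gy, and 2.19, 2.05 and 2.24 after 5x2 Gy, and both differences were called (-1.72 and -1.19, adjusted p = 0.023 and 0.034). Outside the p53 lists, Crip2 had 2.08, 1.40 and 1.78 after 2 Gy, against 5.41 and 3.43 after 10 Gy (difference -2.67, adjusted p = 0.029). Bax had 0.84, 0.80 and 0.83 after 2 Gy, 2.13 and 0.75 after 10 Gy, and 0.49, 0.47 and 0.54 after 5x2 Gy. Its 2 Gy ratios thus lay between those of the 10 Gy arrays and above those of 5x2 Gy.

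Cholesterol and hypoxia genes also had higher ratios after 2 Gy. The cholesterol list median was -0.09, -0.21 and -0.16 after 2 Gy, -1.36 and -1.09 after 10 Gy, and -0.92, -0.65 and -0.76 after 5x2 Gy. Of all genes tested, 1.64% were called with the higher ratio after 2 Gy against 10 Gy and 1.09% against 5x2 Gy. Among cholesterol genes, differences were called for 13 of 24 against 10 Gy and 4 against 5x2 Gy, all with 2 Gy higher. Leaving out any 1 array of 2 Gy left 0 of these calls. With slide as a block the numbers of such genes were 19 and 11. Fdps, farnesyl diphosphate synthase, had -0.32, -0.08 and -0.34 after 2 Gy, -1.90 and -2.17 after 10 Gy, and -1.76, -1.26 and -1.50 after 5x2 Gy. Scd2, a fatty acid desaturase gene, had -0.20, 0.10 and 0.06 after 2 Gy and -2.76 and -2.04 after 10 Gy, the largest called difference in that direction (2.39, adjusted p = 0.012). Of 32 hypoxia and glycolysis genes, 9 differed from 10 Gy, all with 2 Gy higher, among them Bnip3, a mitophagy receptor gene (-0.52, 0.33 and -0.11 after 2 Gy, -2.53 and -1.42 after 10 Gy). Mmp3, the secreted protease stromelysin, ran the other way against 5x2 Gy, with -0.76, -0.57 and -0.55 after 2 Gy and 1.23, 1.19 and 1.28 after 5x2 Gy (difference -1.86, adjusted p = 0.034). The 2 Gy arrays were below all 5x2 Gy arrays for 14 of the 34 matrix and TGF-beta genes, against 21.3% of all genes tested. The 5 differences called there all had 2 Gy lower, a call made for 0.413% of all genes tested.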

How the data were processed

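RNA of irradiated (Cy5) and untreated (Cy3) cells was compared on 2-colour arrays. Per the file headers, the deposited scanner files hold spot intensity, quantified with ImaGene 9.0, not normalized. Processed log2 ratios were also deposited, and their scale and direction were checked against the scanner values (r over probes of 0.998 to 1.000). Each array had 45220 spots, 153 of them negative controls. In limma 3.58.1 (R 4.3.3), foreground signals received a normexp correction (offset 50) and loess normalization per array, control spots having weight 0. Probes were kept when Cy5 or Cy3 exceeded the negative controls (their median plus 2.6 robust SD) on 2 or more of the 3 arrays of 2 Gy, and the brightest probe stood for a gene. Genes above the controls in other regimens only were left out. Of 41174 probes, 6230 had no gene name, and the others were named by RefSeq accession (27190), current symbol (6084), synonym (420) or the array's own symbol (1250). Of 4748 genes with several kept probes, 1679 had another probe of opposite sign.

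The mean of the 3 arrays was tested against 0 with lmFit and eBayes, fitted on these arrays alone. Differences between regimens came from 1 fit to all 8 arrays. A spot counted as saturated at a median pixel signal of 65535, and 133 genes had one. Of probes, 44.9% to 47.5% were above the controls in irradiated and 45.8% to 49.1% in untreated cells, and 3 arrays limit the precision. The fit was tested on simulated data.

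The comparison, its gene lists and the rule for naming genes were chosen with earlier results of these data known. The rule named the 15 largest changes each way among called genes above background in both channels, up to 5 bounds each way, up to 6 members of a list with the smallest p, all p53 genes, and up to 8 differences each way. Those differences were taken among called ones whose arrays did not overlap between the regimens. Uhrf1 and the genes listed only for letters of their promoter were chosen by those letters. Same-numbered arrays did not deviate together (correlations of -0.02 to 0.11), so numbers were not read as pairs. Alternatives were no background correction, offset 0, median centring, the deposited log2 ratios, other filters, the spread of 8 arrays, slide or replicate as a block, the mean of probes, flagged spots left out, each array left out and, chosen after seeing the data, loess without ribosomal and p53 probes and lists without saturated genes.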

Additional observations from a re-analysis of the deposited data

Results flagged for a closer look

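The effect of irradiation differed between regimens for 339 genes between 2 Gy and 10 Gy, and for 189 genes between 2 Gy and 5x2 Gy, by a test of the difference itself in limma. In both comparisons the genes of G2 and mitosis and of cholesterol biosynthesis that differed all had the higher log2 ratio after 2 Gy (22 and 13 against 10 Gy, 2 and 4 against 5x2 Gy). Calls in that direction made up 1.64% of all genes tested against 10 Gy and 1.09% against 5x2 Gy. Across genes, the SD of the log2 ratios ranged from 0.34 to 0.37 for 2 Gy, was 0.70 and 0.47 for 10 Gy and ranged from 0.44 to 0.46 for 5x2 Gy, and its part in these counts was not tested.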

How the results depend on the processing

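The number of genes called after 2 Gy was 4743, and lay between 4039 and 5928 with no background correction, offset 0, median centring, the deposited log2 ratios, other filters, an intensity trend, slide as a block, the mean of probes, flagged spots left out or loess without ribosomal and p53 probes. With the spread of 8 arrays it was 2263 (1201 higher, 1062 lower). Leaving out 1 array gave 2226 to 5192 genes (1218 to 2643 higher, 1008 to 2549 lower), the lowest without replicate 3. Median centring changed the split to 4663 higher and 1265 lower. It reversed Slc19a2 (-0.38 with loess and 0.028 with centring, adjusted p = 0.80) and Fdps (-0.25 and 0.086, adjusted p = 0.44). The cause of these changes was not tested.

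Between 2 Gy and 10 Gy the 339 calls became 4189 with slide as a block, which rests on slide 1 alone, and 0 with a replicate block (1997 genes at an unadjusted p under 0.05), and ranged from 0 to 4189 with 1 array of either regimen left out (0 without any 2 Gy array, 1462 without 10 Gy replicate 1 and 4189 without replicate 2). Without 1 of the 5x2 Gy arrays, which only share the spread, they were 4 or 5. Between 2 Gy and 5x2 Gy the 189 calls became 779 with median centring, 2335 with slide as a block, 0 with a replicate block (2689 at an unadjusted p under 0.05) and 0 without any 1 array of either regimen (2190 to 2641 at an unadjusted p under 0.05). Without 10 Gy replicate 1 or 2 they were 3852. The replicate block left no difference called, 39 named ones among those lost. Same-numbered arrays correlated at -0.02 to 0.11 in their deviations, and no 2 Gy array correlated best with the 5x2 Gy array of its own number.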
